A study of Mus musculus with 39 samples.

Results

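Whole-lung RNA of mice whose sham restraint had ended was compared with that of mice still being restrained, at the same 12 weeks after the start of the study. Of the 39 arrays of the series, 10 belonged to this comparison, chosen by their titles: 5 arrays of 6 week break sham and 5 of 12 week sham, 1 mouse per array. All were male C57BL/6 × CBA F1 hybrid mice, 8 to 10 weeks old at the start, and none received smoke. Sham mice sat in the restrainers of the smoke exposure system, which in the smoke groups ran on 5 days a week. Mice of the 6 week break sham group were restrained for 6 weeks and then left undisturbed for 6 weeks, and mice of the 12 week sham group were restrained for 12 weeks up to sampling. The labels give 3 hours after exposure as the sampling time of both groups, the one with a break included, and the hour of the day is not given in the sources used here. Another 2 sham groups served for a second setting of ended against continuing restraint: 12 week break sham (12 weeks of restraint and 6 weeks of break) and 6 week sham (6 weeks of restraint), 5 arrays each. These differ in the length of the study as well, 18 weeks in 12 week break sham and 6 weeks in 6 week sham. Each value is the log2 ratio of lung (Cy5) to a universal mouse reference RNA (Cy3) on the same array, and a difference is break sham minus sham.

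The circadian clock runs in most tissues as a feedback loop. Arntl (BMAL1) and Clock form the activator that switches on the Per, Cry and Nr1d genes through E-boxes, the PER and CRY proteins then repress it, and the Nr1d and Ror receptors compete at ROR elements to repress or activate Arntl. Dbp, Hlf and Tef, transcription factors of the PAR bZIP family, carry the rhythm to other genes through D-boxes. In the lung, airway club cells are known for a strong clock. Restraint is a widely used stressor of rodents that raises adrenal glucocorticoids, and glucocorticoids set the clocks of peripheral tissues and induce genes such as Per1, Tsc22d3 and Fkbp5.

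The promoters of clock genes that the results turn on are shown because the loop acts through short motifs in such regions. They come from RefSeq (GRCm38.p6) and run from 250 bases before to 50 bases after an annotated start, 5′ to 3′. Capitals mark the motifs searched on both strands: the E-box CACGTG, the variant E-box CACGTT, a D-box TTATGTAA and the ROR element core TAGGTCA, none of which overlapped another here. Of 9 clock genes with an unadjusted p under 0.05 in this comparison or a call in the second pair of groups, 7 had an entry. Per2 and Bhlhe40 had none. Of 32851 promoters, 7.15% held the E-box, 4.68% the variant E-box, 0.938% the D-box and 2.61% the ROR element core.
Dbp (chr7:45704997-45705296, plus strand): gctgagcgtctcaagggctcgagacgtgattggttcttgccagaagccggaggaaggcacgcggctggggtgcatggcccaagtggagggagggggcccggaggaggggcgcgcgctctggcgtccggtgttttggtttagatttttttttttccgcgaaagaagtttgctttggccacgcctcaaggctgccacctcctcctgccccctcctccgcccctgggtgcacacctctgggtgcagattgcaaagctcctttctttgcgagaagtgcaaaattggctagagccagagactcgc
Hlf (chr11:90390868-90391167, minus strand): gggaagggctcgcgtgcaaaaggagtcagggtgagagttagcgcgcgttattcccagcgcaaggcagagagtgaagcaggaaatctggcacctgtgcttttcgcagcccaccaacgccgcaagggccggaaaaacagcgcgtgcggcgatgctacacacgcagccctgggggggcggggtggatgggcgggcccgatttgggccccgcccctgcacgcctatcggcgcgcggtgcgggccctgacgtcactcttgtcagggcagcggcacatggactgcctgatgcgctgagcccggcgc
Cry1 (chr10:85185005-85185304, minus strand): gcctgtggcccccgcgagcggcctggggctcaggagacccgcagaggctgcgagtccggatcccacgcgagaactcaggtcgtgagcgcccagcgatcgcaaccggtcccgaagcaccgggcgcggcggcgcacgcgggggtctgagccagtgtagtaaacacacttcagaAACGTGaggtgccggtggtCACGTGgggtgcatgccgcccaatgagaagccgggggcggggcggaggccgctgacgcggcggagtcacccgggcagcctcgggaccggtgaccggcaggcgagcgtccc
Arntl (chr7:113207261-113207560, plus strand): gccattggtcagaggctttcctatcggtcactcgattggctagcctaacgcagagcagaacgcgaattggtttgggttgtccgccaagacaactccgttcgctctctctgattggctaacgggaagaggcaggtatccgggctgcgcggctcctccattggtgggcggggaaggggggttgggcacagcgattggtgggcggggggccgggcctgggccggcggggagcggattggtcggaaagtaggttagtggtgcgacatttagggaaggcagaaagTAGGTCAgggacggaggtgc
Cry1 held an E-box 60 bases and a variant E-box, read on the other strand, 79 bases before the start. Arntl held the ROR element core 31 bases after the second of its 2 listed starts, the one shown. The windows of Dbp and Hlf held none of the 4 motifs. Of the genes not shown, Clock and Rora held none either, and Bhlhe41 held an E-box 153 bases before its start.

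Exposure days in the labels put the arrays in 5 consecutive runs, each with 1 array of 6 week break sham and 1 of 12 week sham. Every run thus gives a difference of its own. Each array had a label day of its own, and in every run that of 6 week break sham came before that of 12 week sham. Group and label order within a run therefore cannot be told apart in this pair. In the second pair the order was reversed, with 12 week break sham after 6 week sham in each run that held both. Runs were a fixed block in 1 limma model of all 39 arrays and 17560 probes. The median Cy5 signal was 2.61 to 8.16 times the local background in 6 week break sham and 2.45 to 6.69 times in 12 week sham, and 62.7% to 94.6% and 72.2% to 90.5% of probes exceeded the threshold set by the negative controls. The arrays of run 1 stood apart. Its 4 sham arrays had a highest correlation with any other array of 0.874 to 0.908, against 0.917 to 0.967 in the other 16 sham arrays. They were also brighter, with a median Cy5 signal of 852 to 1530, against 268 to 934. The scanner limit was reached by 222 to 571 probes, against 46 to 170. Sftpc had 1.09 to 2.23, against 2.82 to 4.81, but its signal was itself at that limit in the 10 arrays compared. Values without run 1 are therefore given for the called genes and where a call changed. The array labelled 6 week sham replicate 2 had Cyp1a1 at 6.46, within the range of the arrays of smoking groups without a break (5.07 to 8.06), while Cyp1a1 was 0.828 to 2.05 in 6 week break sham, against 1.03 to 2.46 in 12 week sham. Values without that array, called the doubtful array, are therefore given where a call changed. This covers the second pair and also the first, which shares the model with it. Lung markers were present in both groups. Ager and Sftpb, which mark alveolar type I and type II cells, had median log2 ratios of 3.40 and 2.85 in 6 week break sham, against 2.77 and 2.39 in 12 week sham. Sftpc, and Scgb1a1 of club cells, were at the scanner limit in all 10 arrays, so that their ratios do not compare the groups.

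Few genes differed past the threshold between ended and continuing restraint. Of 17560 probes, 7 passed an adjusted p of 0.05 (limma, Benjamini-Hochberg), which is 0.0399%: 3 higher (0.0171%) and 4 lower (0.0228%) in 6 week break sham. The lower ones were Dbp, Slc1a6, Slc25a33 and Zfp503, and the higher ones Clmp, Nxph3 and Pbx2. At an unadjusted p under 0.05 there were 1729 probes (9.85%), 1044 higher (5.95%) and 685 lower (3.9%). The 2 groups did not overlap for 198 probes (1.13%), and the median difference over all probes was 0.016. All 5 runs gave a higher value in 6 week break sham for 6.53% of probes and a lower one for 4.56%. The count of calls depended on the processing. It was 2 without the run block, 151 with array weights and 0 with the 10 arrays alone (1851 at an unadjusted p under 0.05), and 1 to 11 when any 1 of the 10 arrays was left out. Leaving out the 6 week break sham array of run 1, 2, 3 or 5 gave 2, 11, 1 or 4 calls, and leaving out the 12 week sham array of run 1, 3 or 4 gave 11, 2 or 1; the other 3 fits gave 5 or 6. Without run 1 it was 4.

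The clock output gene Dbp had the smallest p of all probes and was the only call past a 2-fold difference. Its log2 ratios in runs 1 to 5 were 0.26, 0.84, 0.56, 0.96 and 0.84 in 6 week break sham, against 1.27, 1.83, 2.36, 2.16 and 1.95 in 12 week sham. Every break sham lung lay below every 12 week sham lung, and the differences within runs were -1.0, -1.0, -1.80, -1.20 and -1.11. Dbp averaged 0.69 ± 0.28 in 6 week break sham and 1.91 ± 0.41 in 12 week sham (SD, n = 5 each), a difference of -1.22 (standard error 0.17, 95% confidence interval -1.56 to -0.88, 2.33-fold lower, adjusted p = 0.000523, limma). It passed in 27 of 28 alternative analyses, among them all 10 that left out 1 array; in the fit of the 10 arrays alone it had -1.22 (adjusted p = 0.201), and without run 1 -1.28 (adjusted p = 0.00032). Its Cy5 signal was at the scanner limit in 1 array of 6 week break sham and 2 of 12 week sham. These are whole-lung samples, so fewer cells of a type and less RNA per cell cannot be told apart. Levels of clock genes also follow the hour of the day, which is not given for these mice. Its part in the clock differences of either pair of groups was not tested.
Hlf, a PAR bZIP factor of the same family, had 0.60, 0.45, 1.38, 1.30 and 1.26 in 6 week break sham, against 1.12, 0.91, 1.94, 2.14 and 2.40 in 12 week sham. The groups overlapped, with low levels in both in runs 1 and 2, but within each run the break sham lung was the lower one, with differences of -0.46 to -1.15. The difference was -0.71 (standard error 0.15, adjusted p = 0.0615, limma), just short of the threshold, and it passed in 7 of 27 alternatives. Without run 1 it was -0.75 (adjusted p = 0.146), and without the doubtful array it passed at -0.71 (adjusted p = 0.0311). Tef, the third PAR bZIP gene, had a difference of -0.13, Usp2, a deubiquitinase under clock control, -0.18, and the cell cycle kinase Wee1 -0.65 (standard error 0.34, adjusted p = 0.539), with Wee1 above the threshold in 2 arrays of 6 week break sham and 1 of 12 week sham. All 5 tested clock output genes thus lay below 0, with 1 called (Tef turned to 0.029 without run 1), and their median was -0.65, against 0.016 for all probes. The list's median was -0.75, -0.46, -0.56, -0.84 and -0.46 in runs 1 to 5, and -0.35 in the fit without run 1. The median over these 5 genes is the value of Wee1, and it was -0.44 with probes above the threshold in all 10 arrays.

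Among clock repressors, Per2 differed most. It had 1.43, 1.32, 1.14, 2.09 and 1.82 in 6 week break sham, against 2.68, 2.57, 2.72, 2.81 and 2.76 in 12 week sham. The 12 week sham lungs lay close together and all above the break sham lungs, which spread over a wider range. The means were 1.56 ± 0.39 and 2.71 ± 0.089 (SD, n = 5 each) in 6 week break sham and 12 week sham, and the difference was -1.15 (standard error 0.23, 95% confidence interval -1.62 to -0.68, 2.22-fold lower). Its adjusted p of 0.0509 (limma) fell just outside the threshold; it passed in 12 of 28 alternatives and ranged from -1.40 to -1.02 over them. Without run 1 it was -1.12 (adjusted p = 0.165), and without the doubtful array it passed at -1.15 (adjusted p = 0.0484). Per1 had differences below 0 in all 5 runs (-0.36, standard error 0.19, adjusted p = 0.556), and so did Bhlhe40 (-0.28, standard error 0.13, adjusted p = 0.483); the related repressor Bhlhe41 had -0.52 (standard error 0.22, adjusted p = 0.406). For Nr1d2 (REV-ERB beta) the difference was -0.37, for Cry1 -0.18 and for Per3 -0.10, while Nr1d1 (REV-ERB alpha) had 0.018 and Cry2 0.16. Of 9 repressors tested, 7 lay below 0 and none was called. Their median was -0.28, and it was below 0 in each of the 5 runs.

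The activator side ran the other way in sign, with smaller differences. Arntl had 0.050, -0.0036, 0.27, 0.09 and -0.15 in 6 week break sham, against -0.16, -0.33, -0.26, -0.53 and -0.44 in 12 week sham. All break sham lungs lay above all 12 week sham lungs, and the difference of 0.40 (standard error 0.18, adjusted p = 0.467, limma) did not pass. The probe was dim, above the threshold in 4 arrays of 6 week break sham and 2 of 12 week sham. Clock had a value above that of 12 week sham in each run, with a difference of 0.25 (standard error 0.11, adjusted p = 0.467). Nfil3, a repressor at D-boxes that the list of activators also holds, had 0.26, and Npas2, a stand-in for Clock, 0.10, which turned to -0.09 without run 1. Npas2 was above the threshold in 3 arrays of 6 week break sham and 2 of 12 week sham. The receptor Rora went against these, at 0.57 to 0.85 in 6 week break sham, against 0.88 to 1.21 in 12 week sham, without overlap (-0.33, standard error 0.11, adjusted p = 0.254). Of the 5 tested, 4 lay above 0, none was called, and the median was 0.25, above 0 in all 5 runs.

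**Figure D1:**
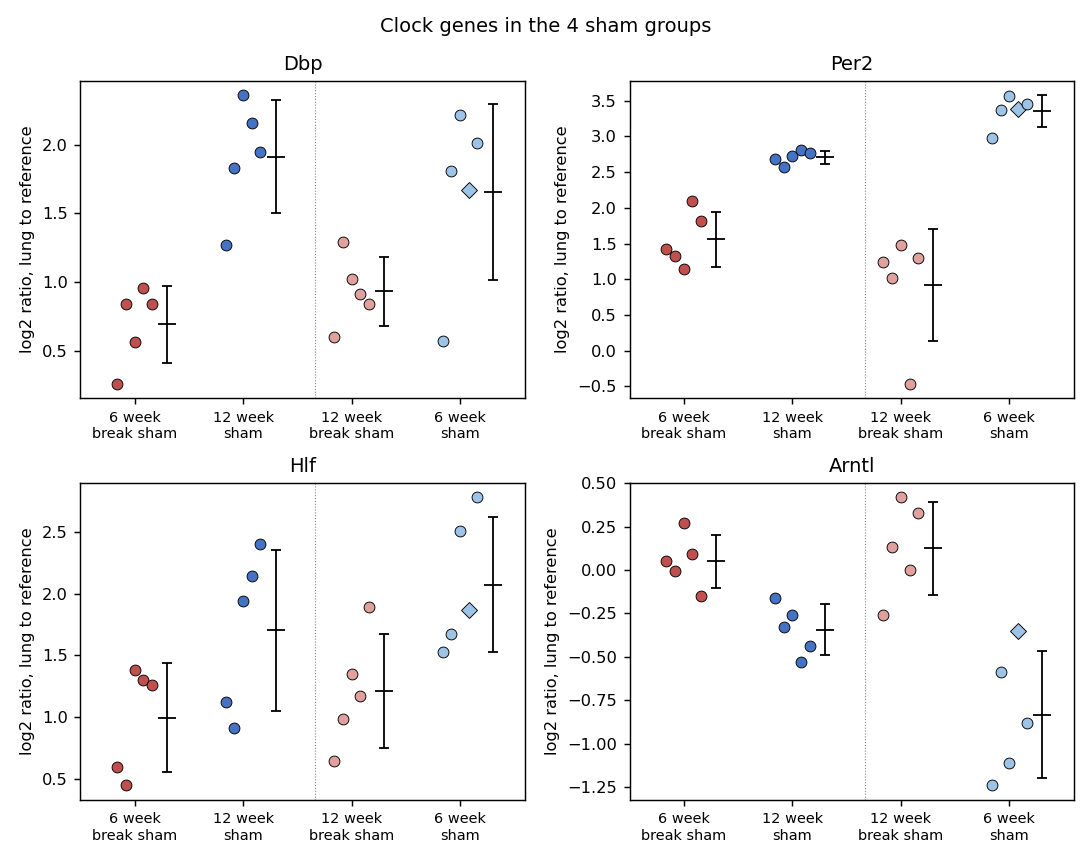
Lung over reference, as a log2 ratio (y axes), for Dbp, Per2, Hlf and Arntl in the 4 sham groups (x axes). Each point is an array, placed in run order, with black bars for the mean and SD (n = 5). A diamond stands for the doubtful array of 6 week sham. For Dbp, 6 week break sham lies between 0.26 and 0.96 and 12 week sham between 1.27 and 2.36.

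The second pair of groups shares no array with the first, though both were fitted in the same model. There, 118 probes passed (0.672%), 57 higher (0.325%) and 61 lower (0.347%) in 12 week break sham than in 6 week sham (6.16% higher and 6.37% lower at an unadjusted p under 0.05). Without the array labelled 6 week sham replicate 2, 66 probes passed, and only 57 of the 118 calls were among them. Per2 had the smallest p. Its log2 ratios in runs 1 to 5 were 1.24, 1.02, 1.48, -0.46 and 1.30 in 12 week break sham, against 2.98, 3.37 and 3.57 in runs 1 to 3 and 3.38 and 3.45 in run 5 of 6 week sham. The groups were far apart, with a difference of -2.41 (standard error 0.23, 5.32-fold lower, adjusted p = 3.17e-07, limma), and -2.43 without the doubtful array. Per2 was above the threshold in 4 of the 5 arrays of 12 week break sham.
Dbp fell as well, with a mean of 0.93 ± 0.25 in 12 week break sham and 1.66 ± 0.64 in 6 week sham (SD, n = 5 each; -0.75, standard error 0.17, adjusted p = 0.0279), although 1 lung of 6 week sham, in run 1, had 0.57 and overlapped. Without the doubtful array the difference was -0.76 (adjusted p = 0.0512), and without run 1 it was -0.96 (adjusted p = 0.00598). Hlf fell by 0.82 (adjusted p = 0.00652) and Cry1 by 0.85 (adjusted p = 0.0157). Arntl was above the threshold in 5 of 5 arrays of 12 week break sham and in none of 6 week sham. Its difference of 0.98 (adjusted p = 0.00668, limma) thus rests on 6 week sham ratios from signals below the threshold. A bound from group means of normalized Cy5 signals, without a run block or a test, put Arntl at least 1.46-fold higher in 12 week break sham. In that bound each dim array counted at its own signal or the lowest signal above its threshold, whichever was higher. The medians of the output, repressor and activator lists were -0.39, -0.34 and 0.09 in this pair.
Of the 7 probes called in the first pair, 4 were called in the second with the same sign, namely Dbp, Clmp, Nxph3 and Slc25a33. The difference between the 2 pairs was tested itself, and no probe passed (limma; 1692 at an unadjusted p under 0.05, 9.64%, with 5.89% above 0 and 3.74% below; smallest adjusted p 0.142). For Dbp it was -0.47 (95% confidence interval -0.96 to 0.0084), for Hlf 0.11 (-0.32 to 0.55) and for Per2 1.26 (0.59 to 1.93, unadjusted p = 0.000566, adjusted p = 0.28).

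**Figure D2:**
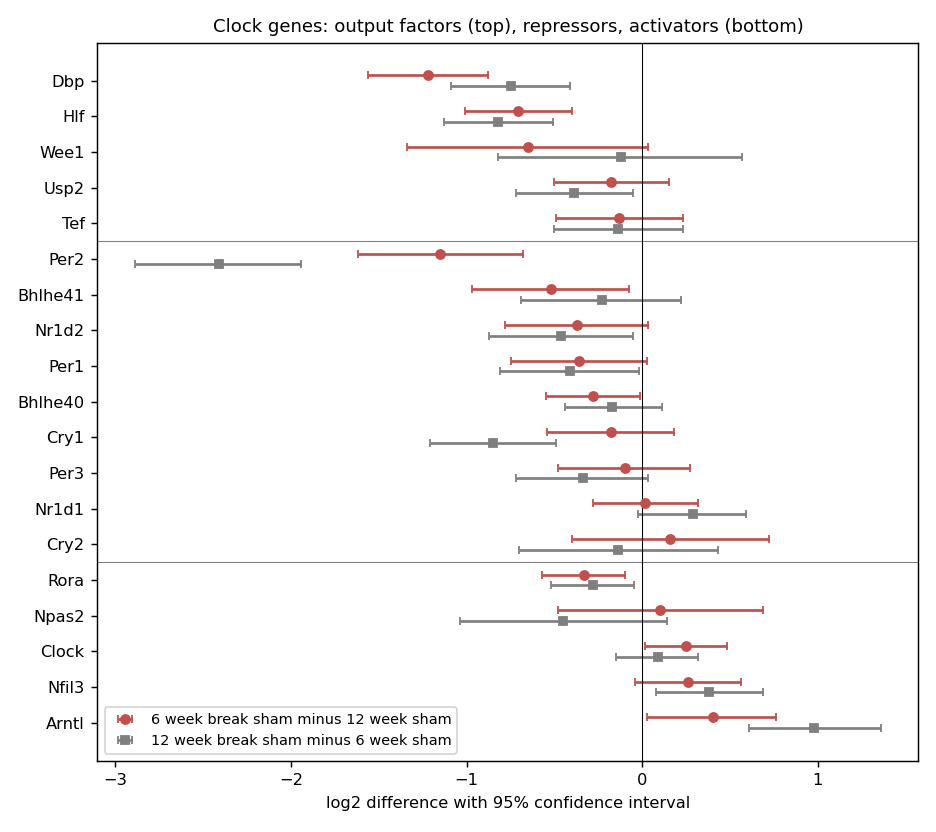
Log2 differences (x axis) of the 19 tested clock genes (y axis), in the order output factors, repressors and activators from the top. Red circles are 6 week break sham minus 12 week sham, grey squares 12 week break sham minus 6 week sham, and bars 95% confidence intervals; Dbp lies at -1.22 and -0.75, Per2 at -1.15 and -2.41 and Arntl at 0.40 and 0.98, the last resting on a signal below the threshold in 6 week sham.

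The 6 other called genes are known for varied roles. Clmp, a cell adhesion molecule related to the coxsackie and adenovirus receptor, had -0.28, -0.26, -0.27, -0.40 and -0.72 in 6 week break sham, against -1.18, -0.83, -0.90, -1.27 and -1.20 in 12 week sham. The groups did not overlap, and the difference was 0.69 (standard error 0.12, 1.61-fold higher, adjusted p = 0.0147, limma). In the second pair Clmp was 0.96 higher (adjusted p = 3.15e-05), and 1.00 without the doubtful array.
Nxph3, a secreted ligand of alpha-neurexins, had 2.02, 2.01, 2.91, 2.06 and 2.80 in 6 week break sham, against 0.88, 1.35, 1.65, 1.26 and 1.89 in 12 week sham (0.96, standard error 0.17, adjusted p = 0.0172). It was 0.81 higher in the second pair (adjusted p = 0.0166), and without run 1 had 0.73 there (adjusted p = 0.101). Pbx2, a homeodomain protein that partners Hox and Meis factors, had 0.71 to 1.09 in 6 week break sham, against 0.11 to 0.49 in 12 week sham (0.56, standard error 0.11, adjusted p = 0.0433), and a difference of 0.37 in the second pair (adjusted p = 0.118).
Of the genes that fell, Slc25a33, a mitochondrial carrier of pyrimidine nucleotides, had -0.88, -0.97, -1.0, -0.29 and -0.82 in 6 week break sham, against -0.31, -0.41, -0.20, 0.0003 and -0.29 in 12 week sham. The break sham lung of run 4 overlapped the other group, but within each run the break sham lung was the lower one (-0.55, standard error 0.11, adjusted p = 0.0433). The second pair gave -0.58 (adjusted p = 0.00738), and without run 1 -0.59 (adjusted p = 0.0502). Slc1a6, a glutamate transporter best known from Purkinje cells, had -3.40 to -2.48 in 6 week break sham, against -2.83 to -1.51 in 12 week sham (-0.83, standard error 0.15, adjusted p = 0.0337), with -0.21 in the second pair (adjusted p = 0.619). Zfp503, a zinc finger repressor, had 0.32 to 0.68 in 6 week break sham, against 0.73 to 1.41 in 12 week sham (-0.65, standard error 0.13, adjusted p = 0.0433), and 0.0076 in the second pair (adjusted p = 0.99).
These 6 calls were less stable than that of Dbp. In the 10 fits that left out 1 array, Clmp passed in 7, Nxph3 in 5, Slc1a6 in 3, Pbx2 and Zfp503 in 2 each and Slc25a33 in 1, with adjusted p up to 0.165 and signs unchanged. Without run 1, Zfp503 passed (adjusted p = 0.0354) and the other 5 did not (Pbx2 0.0782, Clmp and Nxph3 0.102, Slc1a6 and Slc25a33 0.165).
The next genes by p did not pass. Among them were Tspan4, a tetraspanin (-0.82, standard error 0.17, adjusted p = 0.0552), Mthfd1, a folate enzyme (0.39, standard error 0.08, adjusted p = 0.0552), the zinc finger factor Klf16 (0.41, standard error 0.085, adjusted p = 0.0615) and Ooep, an oocyte-expressed gene (1.78, standard error 0.37, adjusted p = 0.0615). Tspan4 had 0.087, -0.51, -0.65, -0.48 and -0.86 in 6 week break sham, against 0.051, 0.47, 0.59, 0.39 and 0.20 in 12 week sham, so that run 1 alone showed no fall. Without run 1 it passed at -1.04 (adjusted p = 1.78e-05), and in the second pair it fell by 1.29 (adjusted p = 7.98e-05). Ooep spread widely among break sham lungs, from 0.74 in run 2 to 3.57 in run 1, and lay at 0.044 to 0.96 in 12 week sham. Without the doubtful array Mthfd1 and Klf16 passed (adjusted p = 0.0484 each, limma), and Tspan4 (0.0532) and Ooep (0.06) did not.

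**Figure D3:**
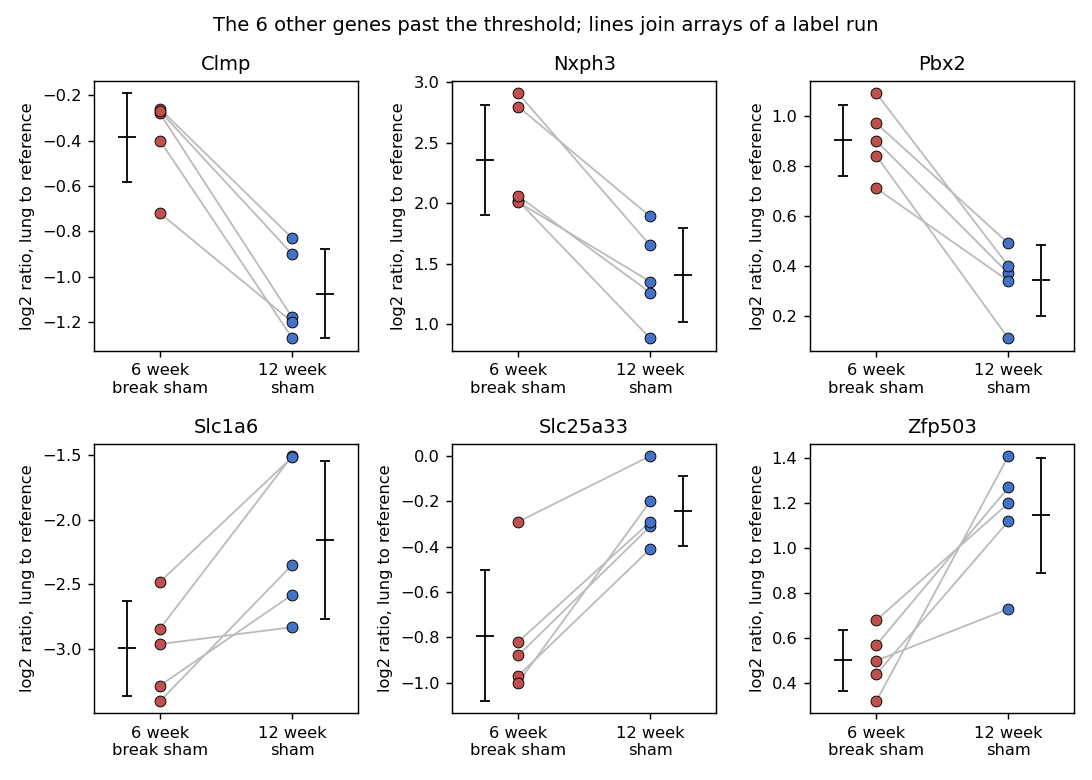
Lung over reference, as a log2 ratio (y axes), for the 6 called genes other than Dbp in 6 week break sham (left, red) and 12 week sham (right, blue). Grey lines join the 2 arrays of a run and black bars are the mean and SD (n = 5). All 5 lines fall from left to right for Clmp, Nxph3 and Pbx2 and rise for Slc1a6, Slc25a33 and Zfp503.

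Genes under glucocorticoids, the hormones of the restraint response, did not move together. Of 32 tested, none was called, 20 lay above 0 and 12 below, and the median was 0.14, with run medians from -0.087 to 0.27. At an unadjusted p under 0.05, 3 were higher (9.38%, against 5.95% of all probes) and 2 lower (6.25%, against 3.9%). Map3k6, a stress-activated kinase, had 0.86, 0.41, 0.77, 1.44 and 0.044 in 6 week break sham, against 1.74, 1.33, 1.60, 1.56 and 1.79 in 12 week sham. It was lower in each run, and its difference of -0.90 (standard error 0.21, adjusted p = 0.0874, limma) did not pass. Tsc22d3, the glucocorticoid-induced leucine zipper protein, had -0.35 (standard error 0.15, adjusted p = 0.398), and in the second pair it fell by 0.66 (adjusted p = 0.0274; without run 1, -0.73 with adjusted p = 0.0646). Fkbp5, which holds the receptor in check, had -0.29 (standard error 0.24, adjusted p = 0.759). At the other end stood Sult1a1, a sulfotransferase, at 2.85 to 5.46 in 6 week break sham, against 0.98 to 3.28 in 12 week sham (1.90, standard error 0.66, adjusted p = 0.273).
No member of the other stress lists was called. The medians were -0.052 for 27 immediate early genes, -0.046 for 19 heat shock chaperones, -0.0024 for 16 hypoxia genes and -0.0054 for 23 Nrf2 antioxidant genes, against 0.016 for all probes. Of 11 cAMP and adrenergic genes, 9 lay above 0 with a median of 0.21, and run medians went from -0.10 in run 2 to 0.45 in run 3. Pde4b, a cAMP phosphodiesterase, had 0.40 (standard error 0.15, adjusted p = 0.322) and Rgs2, a regulator of G protein signalling, -0.44 (standard error 0.18, adjusted p = 0.387). In the second pair Pde4b was called in the other direction, at -0.63 (adjusted p = 0.0397, limma). Without run 1 it had -0.65 there (adjusted p = 0.0703). Its difference between the pairs was 1.03 (adjusted p = 0.142). Of 21 genes of the unfolded protein response, 19 lay below 0 (45.9% of all probes did), with a median of -0.15 and -0.18 to -0.095 over the alternatives; Hsp90b1, a chaperone of the endoplasmic reticulum, had -0.25 and Chac1, a glutathione-degrading enzyme, -0.33. The list median was below 0 in every run but run 4, where it was 0.087.

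Markers of ciliated and alveolar type II cells lay mostly above 0, without a call, while the medians of club and alveolar type I genes lay near that of all probes. Of 19 ciliated cell genes, 17 lay above 0 (54.1% of all probes did), the median was 0.33, and it was above 0 in each of the 5 runs (0.29 to 0.44); with scale normalization between arrays it was 0.13. At an unadjusted p under 0.05, 7 were higher (36.8%, against 5.95% of all probes) and none lower. Foxj1, the master regulator of motile cilia, had 1.87, 2.23, 3.23, 2.95 and 2.88 in 6 week break sham, against 0.85, 1.37, 1.80, 2.24 and 2.54 in 12 week sham. It was higher in every run although the ranges overlapped (0.87, standard error 0.22, adjusted p = 0.118, limma). Lrrc23, a radial spoke protein of cilia, had 0.85 (standard error 0.20, adjusted p = 0.0987). The mean level of the list was 1.94 to 2.40 in 6 week break sham, against 1.56 to 2.19 in 12 week sham. In the second pair its median was -0.04.
Of 16 alveolar type II genes, 14 lay above 0, with a median of 0.37. At an unadjusted p under 0.05, 8 were higher (50%, against 5.95% of all probes) and none lower. Run medians were 0.45, 0.50, 0.32, 0.49 and -0.025, so run 5 did not share the shift. With scale normalization the list median was 0.083. Lamp3, a protein of lamellar bodies, had 2.52, 3.01, 3.32, 3.43 and 2.02 in 6 week break sham, against 1.31, 1.94, 1.89, 1.94 and 2.10 in 12 week sham (1.02, standard error 0.30, adjusted p = 0.178). In the second pair the list median was 0.071, and Lamp3 had 0.11 (adjusted p = 0.923, limma). Cxcl15, the chemokine lungkine, had 0.63 in the first pair (standard error 0.19, adjusted p = 0.19). It was 0.99 higher in the second pair (adjusted p = 0.00818), and 0.89 without run 1 (adjusted p = 0.0516). The values that follow are of the first pair. The surfactant genes Sftpb and Sftpd had 0.37 and 0.20. Club cell genes had a median of 0.04, with 8 of 16 above 0, and alveolar type I genes a median of 0.04, with 6 of 9 above 0; with scale normalization these medians turned to -0.18 and -0.29. Endothelial genes also lay mostly above 0, 17 of 22, with a median of 0.22 that ranged from -0.065 to 0.28 over the alternatives. The clock differences above stand beside these shifts of epithelial and endothelial markers, whose part in them was not tested.

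Lymphocyte markers lay above 0 in some runs and near 0 in others. Of 17 B cell genes, 14 lay above 0 and the median was 0.36, with run medians of 0.18, 0.38, 0.96, -0.013 and 0.11. At an unadjusted p under 0.05, 7 were higher (41.2%, against 5.95% of all probes) and 1 lower (5.88%, against 3.9%). Cd79a, a chain of the B cell receptor, had 2.23, 0.61, 1.55, 0.99 and 0.40 in 6 week break sham, against 0.86, -1.67, 0.54, -0.26 and 0.37 in 12 week sham (1.19, standard error 0.35, adjusted p = 0.19, limma). The gap was widest in run 2, where the 12 week sham lung had the lowest level of all 10, and nearly absent in run 5. Spib, a transcription factor of B cells, lay at 2.68 to 3.55 in 6 week break sham, against 1.99 to 2.60 in 12 week sham, without overlap (0.63, standard error 0.20, adjusted p = 0.214). Jchain, which joins IgA and IgM chains in plasma cells, went the other way without overlap (-0.67, standard error 0.27, adjusted p = 0.384). The groups did not overlap for 1.13% of all probes.
Of 20 T and NK cell genes, 12 lay above 0, with a median of 0.31 that turned to -0.17 when marked spots were left out. Ccr7, a homing receptor of naive T cells and migrating dendritic cells, had 2.27, 1.63, 2.78, 2.37 and 1.78 in 6 week break sham, against 0.58, 0.98, 1.93, 0.38 and 0.44 in 12 week sham. It was higher in each run (1.30, standard error 0.30, adjusted p = 0.0938). Cd8a, the co-receptor of cytotoxic T cells, had 0.74 (standard error 0.21, adjusted p = 0.155), while Cd3e, Cd3g and Cd3d, chains of the T cell receptor complex, had 0.033 (-0.022 without run 1), -0.11 and 0.33. Of 23 macrophage and dendritic cell genes, 19 lay above 0 (median 0.19), among them C1qa, a complement component of macrophages (0.47, standard error 0.13, adjusted p = 0.155). Neutrophil genes had a median of -0.14, and S100a8 was at 0.038 to 2.43 in 6 week break sham, against 1.80 to 2.77 in 12 week sham (-0.71, standard error 0.45, adjusted p = 0.641).

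Among tissue that can be cut along with lung, muscle genes as a list differed in opposite directions between runs. Of 35 cardiac and skeletal muscle genes, 16 lay above 0 and 19 below, and the run medians went from -0.69 in run 1 to 0.68 in run 3. Single members kept a direction. Myh7 was higher in all 5 runs, as 6.53% of all probes were (0.74, adjusted p = 0.172, limma). Nppb was lower in all 5, as 4.56% of all probes were (-0.54, adjusted p = 0.236). The mean level of this list was 0.74 to 1.63 in 6 week break sham, against 0.85 to 1.62 in 12 week sham. Myl7, the atrial myosin light chain, was at the scanner limit in 3 arrays of 6 week break sham and 4 of 12 week sham. The part of such tissue in the differences was not tested. Of 16 adipocyte genes 12 lay above 0, with a median of 0.31 that turned to -0.0082 when marked spots were left out; the lipid droplet gene Cidec had 0.90 (standard error 0.27, adjusted p = 0.212), and the brown fat gene Ucp1 1.13 (standard error 0.56, adjusted p = 0.512). Erythroid genes had a median of 0.072. Of the 35 lists, the clock output factors alone held a called gene, and 6 had a median of the same sign in all 5 runs: the 3 clock lists, ciliated cell, club cell, and sterol and fatty acid synthesis genes. The club cell median was below 0 in 3 of 30 alternatives.

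**Figure D4:**
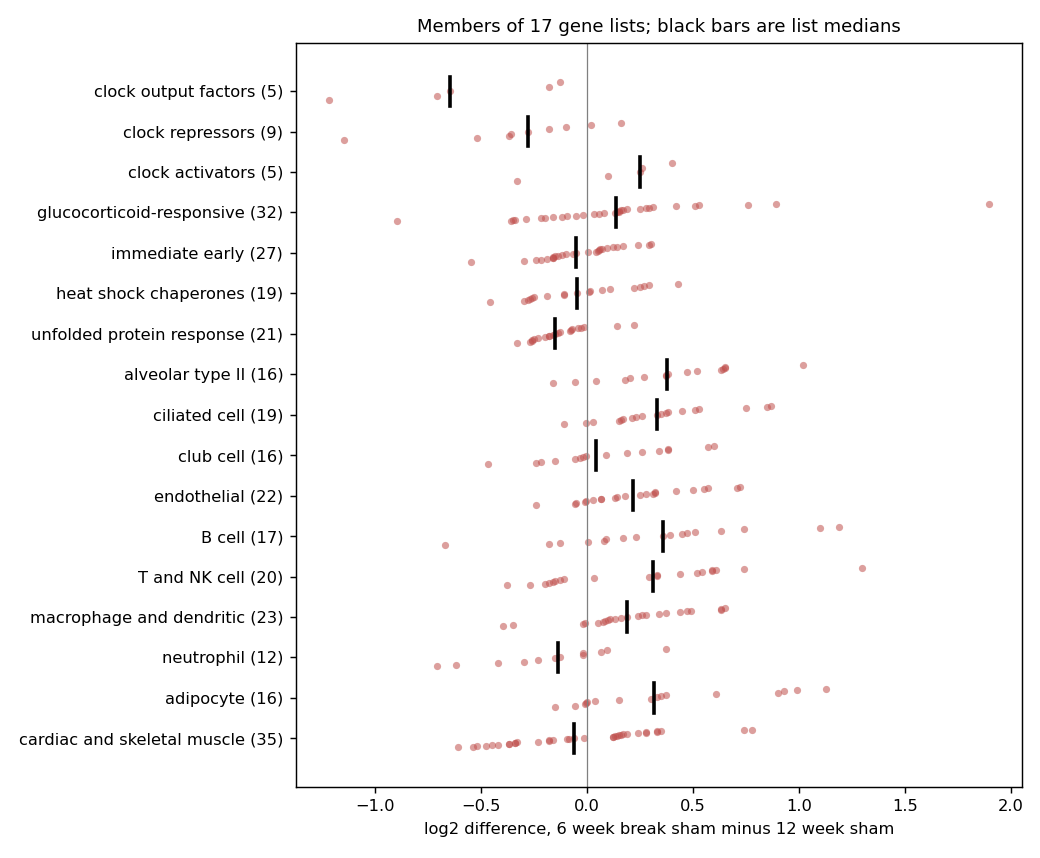
Log2 differences of single genes, 6 week break sham minus 12 week sham (x axis), in 17 of the 35 lists (y axis, number of tested genes in brackets). Red points are genes and black bars list medians, which lie at -0.65 for clock output factors, -0.28 for clock repressors and 0.25 for clock activators, at 0.33 for ciliated cell and at 0.14 for glucocorticoid-responsive genes.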

How the data were processed

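RNA of the upper part of the left lung lobe of single mice was hybridized by the authors with universal mouse reference RNA in 1 dye orientation. The deposited scanner files hold ImaGene intensity readings for each dye, of the spot and of the area around it, to which the authors had applied neither background correction nor normalization; the deposited log2 ratios, which the authors LOWESS-normalized, served as an alternative. From spot and background medians, normexp (offset 50), loess within arrays (control spots at weight 0) and averaging of spots gave 1 log2 ratio per probe. Of 20868 probes, 17560 had a Cy5 signal above a threshold in at least 4 arrays of 1 group, the threshold being, per array, the mean of the negative controls and 3 of their SD above it, both after trimming 5% at each end; 18235 had 1 symbol, 30 several and 2603 none. Symbols were matched to RefSeq. Limma 3.58.1 (R 4.3.3, with the package data.table, version 1.17.8) fitted 8 groups and 5 runs on all 39 arrays, with Benjamini-Hochberg adjustment over all kept probes, and the fit was tested on simulated data. Each mouse is a replicate; replicate numbers follow the order of deposit. The number of arrays limits the precision.

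Genes were named by a rule: in each direction the 12 called probes with the largest difference and no overlap or, where under 6 passed, the 6 with the smallest p, and per list up to 4 called members or otherwise the 2 with the smallest p, from probes with 1 symbol. The other clock genes, and Fkbp5, Tsc22d3, Myl7, Jchain, Cd3 chains, surfactant genes and Ucp1, were named after their values were seen. The comparison, the members and the 35 lists were chosen with earlier results of these data known.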

Additional observations from a re-analysis of the deposited data

Results flagged for a closer look

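In 7 of 136 groups of 5 values (68 genes in 2 groups), 1 array stood far from the other 4 by Dixon's criterion, close to the 1 in 20 that chance gives. In 6 week break sham these were Slc25a33 at -0.29 in run 4 (nearest array -0.82) and Rbmx at 0.045 in run 2 (nearest 0.46). In 12 week sham, 3 arrays were from run 1: Lamp3 at 1.31 (nearest 1.89), the glycolytic gene Pgk1 at -1.03 (nearest -2.56) and the chaperone gene Dnajb1 at 0.028 (nearest -0.32). The others in 12 week sham were Rbmx at 0.36 in run 5 (nearest -0.015) and the cytokine gene Tnf at -0.31 in run 2 (nearest -0.54). For Pgk1 the array of 6 week break sham from run 1 was also high, at 0.063, and the difference within that run was 1.10.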

How the results depend on the processing

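The number of probes that passed in 6 week break sham against 12 week sham, 7 (3 higher, 4 lower), was 2 (1 and 1) without the run block, 4 (1 and 3) with the run as a random block, 0 with the 10 arrays alone, 3 (1 and 2) with the 20 sham arrays, 12 (6 and 6) without the array labelled 6 week sham replicate 2, 14 (7 and 7) without background correction, 4 (2 and 2) with offset 16, 2 (0 and 2) with median centring, 7 (1 and 6) with scale normalization, 13 (6 and 7) with the authors' ratios, 52 (28 and 24, of 9827 probes) without marked spots, 4 (2 and 2) without a filter, 16 (7 and 9) with probes above the threshold in all 10 arrays, 151 (104 and 47) with array weights, 13 (6 and 7) with an intensity trend, 47 (28 and 19) at an adjusted p of 0.1, 1 at 0.01, 4 (1 and 3) without run 1, and 1 to 11 with 1 array left out. The lowest count, 1, came without the break sham array of run 3 or the 12 week sham array of run 4. The count of the second pair, 118, was 42 without the block, 66 without 6 week sham replicate 2, 58 with median centring, 70 without run 1, and 47 to 140 with 1 array left out. The difference between the pairs, 0, was 1 with array weights and 0 to 4 with 1 array left out. Fits without run 1 and those that left out arrays of the second pair were chosen after seeing the data. Direction was followed for 68 genes. These were genes named by the rule with an unadjusted p under 0.05 (limma), and clock genes with such a p or a call in the second pair. Of the 68 genes, 67 kept their direction under all alternatives that gave a value, and Cry1 was at 0.05 without marked spots. Most were picked for a small p in these same data, which by itself favours a kept direction. Values without run 1 were not looked at for Sftpd, Jchain, Cd3g, Cd3d, Ucp1, Ankrd12, Dclk3 and Chrac1. Among the other genes named outside the rule, Tef, Npas2 and Cd3e changed sign without run 1. The causes were not tested. Replicate numbers follow the order of deposit, and no paired analysis was possible because of that with these numbers; pairing by run was possible, and the fit of the 10 arrays alone with the run as a block, which is that analysis, gave the 0 calls above. Dim probes such as Arntl and Wee1 limit what the clock lists can show.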

Other observations

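Genes outside the clock also led the second pair, 12 week break sham against 6 week sham, which shares no array with the first; those below were chosen after their values were seen. Ankrd12, an ankyrin repeat protein, fell by 0.81 there (adjusted p = 4.72e-05, limma) and had -0.31 in 6 week break sham against 12 week sham (adjusted p = 0.23). The kinase gene Dclk3 fell by 1.07 (adjusted p = 0.000358) and had -0.64 in the first pair (adjusted p = 0.0987). Adm, which encodes the vasodilator adrenomedullin, was 0.78 higher in the second pair (adjusted p = 0.00406) and had 0.43 in the first (adjusted p = 0.214). Chrac1, a subunit of chromatin remodelling complexes, was 0.55 higher in the second pair (adjusted p = 0.00114) and had 0.11 in the first (adjusted p = 0.739). The differences between the pairs were not past the threshold for any of these genes. Without the doubtful array Adm was 0.72 higher in the second pair (adjusted p = 0.0157, limma). Values without that array were not looked at for Ankrd12, Dclk3 and Chrac1, so whether their calls hold without it is not known here.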
